A study of Caenorhabditis elegans with 51 samples.

Results

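The comparison described here is that of *sod-2* mutant worms with the wild-type worms sequenced beside them, which takes up 12 of the 51 libraries of the series, 6 from mutant and 6 from wild-type (WT) worms. The members were taken by sample label, and a gene was kept as a firm change only if it was called in the same direction in both tables deposited for these 12 libraries. RNA was sequenced from whole, synchronized *Caenorhabditis elegans* at the prefertile young adult stage, grown at 20°C on NGM plates with OP50 bacteria and given no treatment. Per the methods, the mutants carry the deletion allele *sod-2(ok1030)* and the WT strain is N2. The groups were not given any other allele or agent. The question behind the comparison is whether loss of the mitochondrial superoxide dismutase changes gene expression, that of DAF-16 target genes in particular. Because whole worms were used, fewer cells of a type and less RNA per cell cannot be told apart. The methods call the 6 libraries of a strain biological replicates.

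Superoxide dismutases turn superoxide, a reactive oxygen species (ROS) that leaks from the electron transport chain, into hydrogen peroxide. In *C. elegans*, SOD-2 is the main manganese enzyme of the mitochondrial matrix, SOD-3 its inducible counterpart, SOD-1 and SOD-5 are copper/zinc enzymes of the cytosol, and SOD-4 is extracellular or membrane bound. DAF-16 is the FOXO transcription factor that is held out of the nucleus by signaling from the insulin-like receptor DAF-2. Worms without *sod-2* are known to be long-lived in spite of raised sensitivity to oxidants.

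Values below are normalized CPM (a gene's reads as counts per 1e+06 reads of its library, scaled by the authors), fold changes are on the scale of log2(normalized CPM + 0.5) unless said otherwise, and a gene was called at a false discovery rate below 0.05. On this scale the change of a weakly expressed gene comes out too small. Libraries held 22586580 to 33412986 reads in genes of the filtered table, of which the 10 most abundant transcripts made up 5.03% to 8.13%.

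The *sod-2* transcript was nearly absent from every library labeled *sod-2*. In WT worms it was at 79.2, 88.0, 88.0, 88.3, 85.1 and 89.5 normalized CPM, a mean of 86.4 ± 3.79 (SD, n = 6). In *sod-2* worms it was at 0.544, 0.302, 0.401, 0.0432, 0.379 and 0, from 16, 9, 13, 1, 10 and 0 reads. The count of 0 in library 6 allows a level of up to 0.116 normalized CPM (3 reads, counting error only). The groups lie far apart, with a log2 fold change of -6.85 ± 0.18 (SE; limma, adjusted p = 3.11e-11).

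The genes called next to *sod-2* fell as well. *sod-2* lies on the forward strand of chromosome I at 8434550 to 8435807 (WBcel235), inside the span of *dpt-1* (8429926 to 8435865), a dipeptidyl peptidase gene on the other strand. *dpt-1* was at 154, 164, 160, 158, 155 and 158 normalized CPM in WT worms and at 38.5, 43.9, 44.5, 47.5, 32.5 and 41.9 in *sod-2* worms. Its log2 fold change was -1.93 ± 0.09 (limma, adjusted p = 2.63e-08). The next gene on that strand, *F02E9.10* (8427087 to 8429832), was at 34.5 to 47.3 in WT worms and at 9.12 to 14.1 in *sod-2* worms, a log2 fold change of -1.84 ± 0.12 (limma, adjusted p = 7.99e-07). The strand setting of the counting is not given in the sources used here, so reads in the 21 exonic bases that *dpt-1* shares with *sod-2* cannot be assigned with certainty. *dpt-1* and *F02E9.10* were lower in all 6 mutant libraries than in any WT library, and in the whole-count table their log2 fold changes were -1.94 and -1.88 (edgeR), in that order. Of the other 8 genes with values within 20000 bases of *sod-2*, none was called by limma or edgeR, with log2 fold changes from -0.27 to 0.12 and adjusted p of at least 0.388 (limma). *F10D11.2*, which starts 151 bases beyond *sod-2*, was among them at -0.08.

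**Figure D1:**
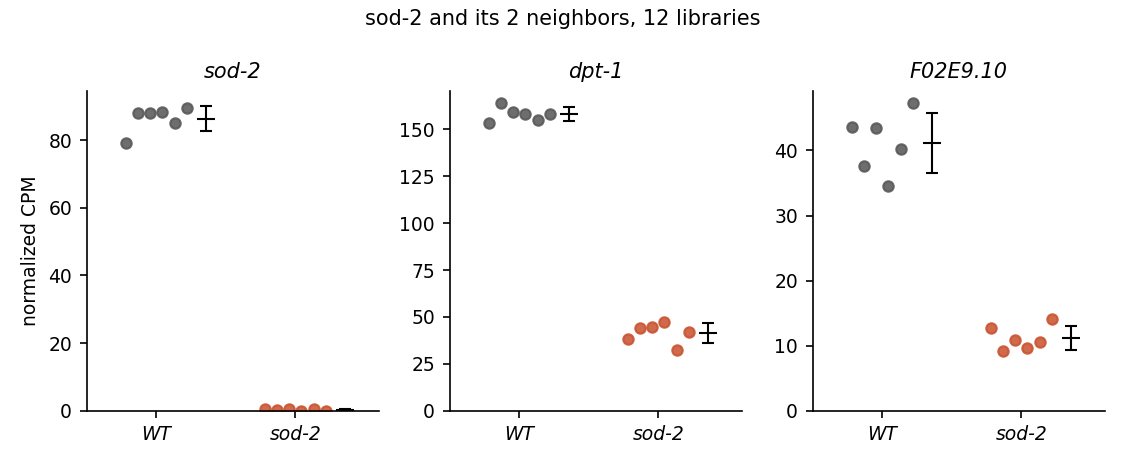
Normalized CPM (y axis, from 0) of *sod-2*, *dpt-1* and *F02E9.10* in each of 6 WT (gray) and 6 *sod-2* (orange) libraries; bars at the side are the mean and SD. In each of the 3 panels all mutant libraries lie below all WT libraries, at 0 to 0.544, 32.5 to 47.5 and 9.12 to 14.1.

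The tables of these libraries do not count every gene alike, and the difference follows the groups. In the filtered table, the WT libraries lack reads of many genes that overlap another gene on the opposite strand, and the *sod-2* libraries do not. Among 3666 such genes, the summed WT reads of the 2 tables differed by more than 10% for 16.8% of genes and the summed *sod-2* reads for 2.86%. Among 10818 genes without such an overlap, the shares were 6.19% and 5.06%. At 57 of the overlapping genes the WT libraries alone had under 50% of the reads of the whole-count table, and at 0 of them did the *sod-2* libraries alone. The filtered table gave 341 genes up, 2.34% of 14596 tested, and 101 down, 0.692%. The whole-count table gave 220 up, 1.36% of 16166 tested, and 51 down, 0.315% (edgeR). Of the 160 upward calls of the filtered table that did not recur, 122 were genes with an overlap on the other strand, and 121 of the 160 were counted differently in at least 1 group.

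**Figure D2:**
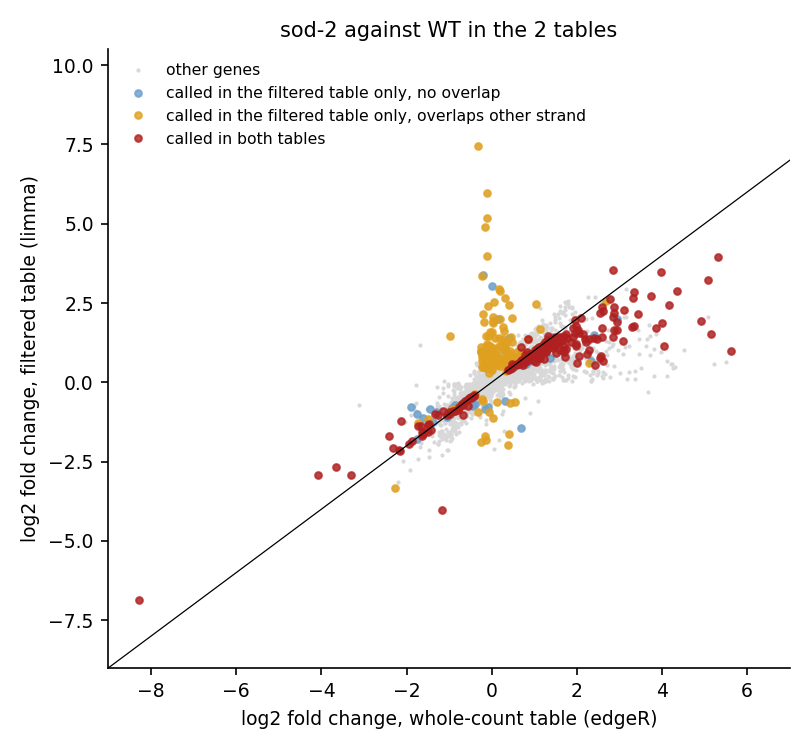
Log2 fold change of *sod-2* against WT worms for each gene in the filtered table (y axis) and in the whole-count table (x axis), with the line of equality. The 226 genes called in both tables (red) lie on the same side of 0 on both axes, while upward calls of the filtered table alone among genes overlapping the other strand (yellow; blue without overlap) mostly sit near 0 on the x axis.

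There were 181 genes upregulated in *sod-2* worms by both tables, 1.24% of the 14562 tested in both, and 45 were downregulated, 0.309%. No gene was called in opposite directions. The increases ranged around a median of 1.1 on the log2 scale (0.39 to 3.95), the decreases around -1.04 (-0.41 to -6.85). All 6 mutant libraries lay above all 6 WT libraries in both tables for 139 of the 181 upregulated genes, and below them for 37 of the 45 downregulated genes. Over all genes, the libraries lay apart in this way for 1.35% and 0.797%. Most of the upregulated genes were weakly expressed, with a median of 2.02 normalized CPM in WT and 5.75 in *sod-2* worms, whereas the downregulated genes had medians of 31.4 and 9.13. The tables hold the same libraries, so a firm change is a check on counting and not a second experiment. Of the firm genes, 21 of the 181 up and 6 of the 45 down were counted differently by more than 10% in at least 1 group. A firm call thus does not clear a gene of the counting difference.

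The libraries differ in the level of transcripts tied to the molt and to adult yolk production. The summed level of 11 molting genes, which cycle with the renewal of the cuticle, was 1066, 4735, 819, 2022, 330 and 758 in WT libraries 1 to 6 and 1505, 5255, 3832, 4620, 1600 and 1238 in *sod-2* libraries 1 to 6. The 6 vitellogenin genes, which encode the yolk proteins that adult intestine makes for oocytes, summed to 20790 to 46210 in WT worms and to 1022 to 26050 in *sod-2* worms. WT 2 and *sod-2* 2, 3 and 4 had the most molting RNA. The lowest vitellogenin levels were in *sod-2* 2, 4 and 5. Molting and vitellogenin levels did not go together throughout. *sod-2* 5, at 1600 for molting genes, had 5108 for vitellogenin genes, while *sod-2* 1, at 1505, had 25170. No member of these lists of 11 molting and 6 vitellogenin genes was firm. At unadjusted p below 0.05 (limma) 4 of 11 molting genes were higher (list median 1.17 on the log2 scale) and 6 of 6 vitellogenin genes lower (list median -2.59). limma called 1 vitellogenin gene down in the filtered table, edgeR 0 and DESeq2 2 in the whole-count table, and all 3 tools called 0 of the 11 molting genes listed. Of the 6 lists of cell type markers none had a firm member. Germline markers summed to 1324 to 1665 in WT and 851 to 1463 in *sod-2* worms, and 2 of these 5 genes were lower at unadjusted p below 0.05 (limma). Eggshell and oocyte transcripts, a list of 18, summed to 2396 to 5770 in WT and 954 to 6532 in *sod-2* worms, with 0 called by limma or edgeR and 0 at unadjusted p below 0.05. Without those 4 libraries, leaving 5 WT and 3 *sod-2* libraries, 39 genes were firm up and 14 down, and 37 and 13 of these were in the full list. With the molting level as a covariate, 128 were up and 68 down, and 102 and 27 of these were in the full list. The median of the vitellogenin list was -1.74 without the 4 libraries and -1.78 with the covariate. Both settings were chosen after the data were seen, and the part of worm stage in the vitellogenin levels and in the other calls was not tested.

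**Figure D3:**
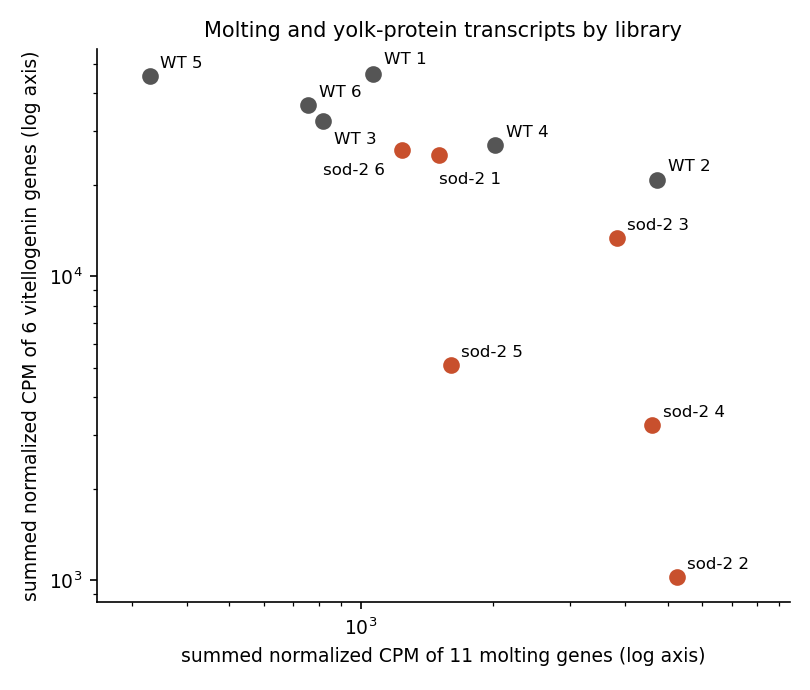
Summed normalized CPM of 6 vitellogenin genes (y axis, log) against that of 11 molting genes (x axis, log) in each of 12 libraries (gray WT, orange *sod-2*). The groups overlap on the x axis, and *sod-2* 2, 4 and 5 lie lowest on the y axis, at 1022, 3240 and 5108.

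The counts also depend on single libraries. Leaving out 1 library at a time gave 75 (without WT 3) to 351 (without *sod-2* 1) genes up and 21 (without WT 3) to 82 (without *sod-2* 1) down. The count of upregulated genes also fell by over 1.5 times, to between 87 and 107, without WT 1, 4, 5 or 6 or *sod-2* 2 or 4. The count of downregulated genes fell to between 22 and 27 without WT 1, 4 or 5 or *sod-2* 2 or 4, and rose to 69 without *sod-2* 6. A core of 68 upregulated and 19 downregulated genes was firm in each of the 12 leave-outs. Of these, 31 and 13 were also firm in both molting settings, among them *sod-2*, *dpt-1*, *F02E9.10*, *fbxa-191*, *fbxa-192*, *fbxa-193*, *cyp-14A4*, *cyp-33C8* and *clec-47*.

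Cytochromes P450, heme enzymes that oxidize lipids, hormones and foreign compounds, were the family with the highest share of firm increases among the gene families listed. Of 64 measured members 9 were upregulated, 14.1% against 1.24% of all genes, and 1 was downregulated, 1.56% against 0.309%. Of the 9, 3 were firm in all 12 leave-outs (*cyp-14A4*, *cyp-33C8* and *cyp-13B1*). The median of all 64 was 0.33 against -0.01 for all genes. *cyp-14A4* was at 0.974, 0.838, 0.521, 0.471, 0.265 and 0.326 normalized CPM in WT worms and at 3.81, 14.9, 4.69, 14.9, 4.28 and 3.63 in *sod-2* worms. Every mutant library was above every WT library, and *sod-2* 2 and 4 stood highest. Its log2 fold change was 2.73 ± 0.36 (limma, adjusted p = 0.000715).

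*cyp-33C8* was at 3.81 to 6.15 in WT and 13, 43.1, 28, 54.3, 26.8 and 24.2 in *sod-2* worms, a log2 fold change of 2.37 ± 0.28 (limma, adjusted p = 0.00024). *cyp-13B1* was at 0.486 to 2.05 in WT and 3.78 to 23.7 in *sod-2* worms, with *sod-2* 5 highest, a log2 fold change of 2.66 ± 0.42 (limma, adjusted p = 0.00279). The groups do not overlap for either gene. *cyp-13A12* was at 0.712 to 2.71 in WT and 3.17 to 27.1 in *sod-2* worms (log2 fold change 2.07; limma, adjusted p = 0.0213), and its call was lost without WT 3, 4, 5 or 6 or *sod-2* 4. The other upregulated members were *cyp-13A6*, *cyp-13A7*, *cyp-14A1*, *cyp-25A3* and *cyp-33D1*. The member that fell, *cyp-25A1*, had a log2 fold change of -1.02 and neighbors *cyp-25A3*, at 1.08. These 6 were named after their values were seen, and were firm in 2 to 7 of the 12 leave-outs. Without the 4 libraries richest in molting RNA 2 members were firm up, and with the covariate 3, while the family median was 0.35 and 0.27. *cyp-13B1*, not firm without those libraries, had a log2 fold change of 2.58 there.

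F-box proteins, which pick substrates for ubiquitin ligases and form a large, fast-evolving family in worms, had 13 firm increases, 6.34% of the members measured against 1.24% of all genes. limma and edgeR called 0 members down, DESeq2 called 1, and 7 were lower at unadjusted p below 0.05 (limma). The median of the family was 0.12. The largest firm changes were in 3 adjacent genes of chromosome V between 17637982 and 17655281. *fbxa-192* was at 0.974, 0.712, 1.25, 0.653, 1.56 and 1.07 in WT worms and at 22.3, 12.7, 17.5, 14.8, 12.32 and 19.6 in *sod-2* worms. The groups lie well apart, with a log2 fold change of 3.47 ± 0.19 (limma, adjusted p = 1.18e-07). *fbxa-193* was at 0.522 to 1.54 in WT and 4.51 to 10 in *sod-2* worms, and *fbxa-191* at 0.209 to 0.834 and 3.44 to 4.79, with log2 fold changes of 2.36 and 2.28. The increase of these 3 genes is not particular to *sod-2* worms, since all 7 mutants of the other experiment had it as well (given below). *fbxa-166* on chromosome II was at 0.290 to 0.695 in WT and 1.47 to 6.22 in *sod-2* worms (1.92; limma, adjusted p = 0.00134). With molting RNA as a covariate 13 F-box genes were firm up, and 5 without the 4 libraries.

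C-type lectins, sugar-binding proteins of which many are secreted and respond to microbes, moved both ways: 4 of 107 were upregulated (3.74%, against 1.24% of all genes) and 3 downregulated (2.80%, against 0.309%). *clec-17* was at 0.0758 to 0.696 in WT and 4.22, 12.14, 2.69, 5.44, 39.5 and 3.17 in *sod-2* worms, a log2 fold change of 3.22 ± 0.53 (limma, adjusted p = 0.00376). *clec-60* was at 1.14 to 3.69 in WT and 6.17 to 32.1 in *sod-2* worms (2.19; limma, adjusted p = 0.0052). *clec-67* was at 6.03 to 23.7 in WT and 38.3 to 97.2 in *sod-2* worms (1.98; limma, adjusted p = 0.00349). For all 3, *sod-2* 5 was the highest library and the groups did not overlap. Without the 4 libraries rich in molting RNA none of the 4 lectins that rose was firm, with log2 fold changes of 3.51, 2.58 and 2.06 for these 3, and 2 of the 3 that fell were firm.

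*clec-47* ran the other way, at 26.6, 45.9, 34.3, 35.1, 37.8 and 38.7 in WT worms and at 4.35, 15.5, 6.51, 7.78, 7.16 and 8.07 in *sod-2* worms. The lowest WT library was above the highest mutant library, with a log2 fold change of -2.16 ± 0.23 (limma, adjusted p = 0.000104). *clec-48* and *clec-49* were the other lectins that fell, named after their values were seen.

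Among conjugating enzymes of detoxification, 3 of 62 UDP-glucuronosyltransferases rose (4.84%) and 2 of 37 glutathione S-transferases (5.41%), against 1.24% of all genes. Of the UDP-glucuronosyltransferases 1 fell (1.61%, against 0.309% of all genes). *ugt-62* was at 78.6 to 128 in WT and 144 to 323 in *sod-2* worms, a log2 fold change of 1.17 ± 0.19 (limma, adjusted p = 0.00306), with no overlap of the groups. *ugt-19* was at 10.4 to 15 in WT and 22.4 to 56.2 in *sod-2* worms (1.40; limma, adjusted p = 0.00158). Without the 4 libraries rich in molting RNA *ugt-19* was firm, and *ugt-62* was not, with a log2 fold change of 0.92. *ugt-2*, at 0.92, and *ugt-63*, which fell by 1.56 on the log2 scale, were called with adjusted p of 0.0413 and 0.0177 (limma), and both lost the call in leave-outs. *ugt-2* was firm in 2 of the 12 leave-outs and *ugt-63* in 7.

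The glutathione S-transferases *gst-12* and *gst-20*, neighbors on chromosome II, rose by 1.19 and 0.98 (limma, adjusted p = 0.0398 and 0.0467), and in both the groups overlapped. *gst-12* was at 1.27 to 2.56 in WT and 2.2 to 9.82 in *sod-2* worms, and *gst-20* at 13.2 to 22.5 and 16.407 to 50.2. They stayed firm in 3 and 1 of the 12 leave-outs. Neither was firm without the 4 libraries rich in molting RNA or with the molting covariate. *gst-12* was also the sole firm member among 15 detoxification genes of the SKN-1 (Nrf) pathway, 6.67% against 1.24% of all genes. Of these 15, 14 had a positive log2 fold change and 9 an unadjusted p below 0.05 (limma). Over all genes 2521 of 14596 had such a p, in both directions. The median of these 15 was 0.53. It was 0.44 without the 4 libraries and 0.30 with the covariate, and 0 of the 15 were firm in either setting.

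Of 179 nuclear hormone receptors, ligand-regulated transcription factors, 7 rose (3.91%, against 1.24% of all genes) and 1 fell (0.559%, against 0.309%). *nhr-61* was at 5.84 to 8.54 in WT and 10.9 to 25.7 in *sod-2* worms (log2 fold change 1.13; limma, adjusted p = 0.00321), and *nhr-90* at 5.49 to 6.95 and 8.34 to 14.5 (0.93; limma, adjusted p = 0.00295). The groups of both do not overlap. Without the 4 libraries rich in molting RNA none of the 7 was firm, and *nhr-61* and *nhr-90* had log2 fold changes of 0.87 and 0.80. *nhr-193* and *nhr-210* rose by 1.32 and 0.99, with a group overlap and calls that were firm in 6 and 3 of the 12 leave-outs.

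Single genes with a known role in mitochondria or in stress were firm. *sqrd-1*, the mitochondrial sulfide:quinone oxidoreductase, was at 2.51, 2.72, 2.74, 1.67, 3.56 and 2.25 in WT worms and at 6.19, 7.38, 5.96, 5.79, 14.9 and 6.49 in *sod-2* worms. All mutant libraries were higher than all WT libraries, with a log2 fold change of 1.37 ± 0.22 (limma, adjusted p = 0.00365). The gene was not firm without the 4 libraries rich in molting RNA, where its log2 fold change was 1.59. *sqrd-1* was the only firm member of 11 HIF-1 and sulfide genes, 9.09% against 1.24% of all genes. *cdr-2*, of a cadmium-responsive family, rose from 24.4 to 32.2 in WT to 43.5 to 103 in *sod-2* worms (1.30; limma, adjusted p = 0.000898).

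*timm-23*, a subunit of the inner membrane protein import channel, was at 69.9 to 81.5 in WT and 77.1 to 114 in *sod-2* worms (0.43; limma, adjusted p = 0.0321), with *sod-2* 6 inside the WT range. It was the only firm member of 12 genes of the mitochondrial unfolded protein response, 8.33% against 1.24% of all genes. *mrps-14*, of the mitochondrial ribosome, was the 1 of 70 in its family to rise, 1.43% against 1.24% of all genes (0.46; limma, adjusted p = 0.0332). *atf-6*, a sensor of endoplasmic reticulum stress, was 1 of 15, 6.67% against the same 1.24% (0.54; limma, adjusted p = 0.0208). These 3 calls were firm in 2, 3 and 4 of the 12 leave-outs.

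Respiratory chain genes gave no firm change. Among 15 nuclear genes of complex I and 28 of complexes II to V, limma, edgeR and DESeq2 called 0, and at unadjusted p below 0.05 (limma) 0 were higher and 1 lower in the first list, and 1 higher and 2 lower in the second. Of 37 genes of glycolysis, the TCA cycle and the glyoxylate shunt 0 were firm, with 9 higher at unadjusted p below 0.05 and 2 called by DESeq2. The 12 genes of the mitochondrial genome were measured in the filtered table alone and 0 were called by limma there (4 higher and 2 lower at unadjusted p below 0.05). Of 17 cytosolic heat shock genes 0 were called by limma, edgeR or DESeq2 and 0 reached an unadjusted p below 0.05 (limma).

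Among 19 catalases, peroxiredoxins, thioredoxins and glutathione peroxidases, enzymes that remove peroxide, 0 were firm. limma called 1 up, edgeR 0 and DESeq2 2, and 6 were higher at unadjusted p below 0.05 (limma). Their median was 0.13 on the log2 scale. Of 33 proteasome subunits 0 were called by limma, edgeR or DESeq2 and 6 were lower at unadjusted p below 0.05, with a median of -0.16. The 13 genes of insulin signaling, *daf-16* itself and genes upstream of and beside it, gave 0 calls by these tools. Of them 1 was higher at unadjusted p below 0.05 (limma), with a list median of -0.06. All 3 medians are on the limma scale, where that of all genes was -0.01. Over both directions 2521 of all 14596 genes had an unadjusted p below 0.05 (limma).

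Collagens *col-41* and *col-176*, structural proteins of the cuticle, were the firm increases among the 130 cuticle collagens measured, 1.54% against 1.24% of all genes. At unadjusted p below 0.05 (limma) 11 collagens were higher and 25 lower, with a family median of -0.06, and 0 were firm down (limma and edgeR 0, DESeq2 1). All collagens summed to 44540 to 56110 normalized CPM in WT and 23990 to 45010 in *sod-2* worms, lowest in *sod-2* 2 and 4. *col-41* was at 2.23, 4.36, 2.64, 3.84, 1.02 and 4.98 in WT worms and at 5.24, 320, 165.9, 156, 44.4 and 9.07 in *sod-2* worms. The lowest mutant library was just above the highest WT library, while *sod-2* 2, 3 and 4 were highest (log2 fold change 3.95 ± 0.89; limma, adjusted p = 0.0296). Without the 4 libraries rich in molting RNA its log2 fold change was 2.1 and it was not firm. *col-176* was at 2.16 to 35.9 in WT, with WT 2 highest, and 20.7 to 255 in *sod-2* worms (3.54; limma, adjusted p = 0.012), and its WT reads in the filtered table were 63.8% of those in the whole-count table. Both were firm in 3 of the 12 leave-outs.

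Other large increases without overlap of the groups were in 3 genes of little known function. *B0205.13* and *B0205.14*, adjacent on chromosome I, were at 1.68 to 7.09 and 0.0696 to 0.293 in WT and at 13.1 to 50.97 and 1.81 to 5.70 in *sod-2* worms. Their log2 fold changes were 2.64 and 2.45 (limma, adjusted p = 0.00203 and 4.1e-05) and neither group pair overlapped. *T02B5.1*, annotated as a carboxylic ester hydrolase, was at 1.86 to 5.61 in WT and 10.8 to 61.7 in *sod-2* worms (2.24; limma, adjusted p = 0.00942), and lost its call without WT 3. Neither *T02B5.1* nor *B0205.13* was firm without the 4 libraries rich in molting RNA, where they were at 2.4 and 2.14. Larger than these changes, but with overlap of the groups, were those of *dpy-6*, a mucin-like cuticle gene (2.84; limma, adjusted p = 0.0221), and *Y68A4A.13* (2.89; limma, adjusted p = 0.0164), both named after their values were seen. *dpy-6* was at 5.08 to 21.5 in WT and 23.1, 207, 107, 155, 38 and 15.1 in *sod-2* worms, with *sod-2* 2, 3 and 4 highest, and was firm in 5 of the 12 leave-outs. Of the smaller listed families, *ttr-26* (transthyretin-like, 1.14), *nlp-37* (neuropeptide-like, 0.58), *nas-3* (metalloprotease, 1.44) and *asp-8* (aspartyl protease, 1.17) were the firm members of largest change, with adjusted p between 0.00942 and 0.0404 (limma). They were firm in 3, 3, 6 and 11 of the 12 leave-outs, and none of them in either molting setting. These were 1 of 50 transthyretin-like genes (2%), 1 of 88 neuropeptide genes (1.14%) and 2 of 71 proteases (2.82%), against 1.24% of all genes.

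The largest decreases after *sod-2* and *srp-5* were in 3 neighboring genes of chromosome V between 17101129 and 17108410. *ZK218.7* was at 7.34, 11.3, 7.40, 2.28, 7.74 and 5.1 in WT worms and at 0.170, 0.503, 0.494, 0.475, 0.607 and 0.154 in *sod-2* worms, a log2 fold change of -2.93 ± 0.29 (limma, adjusted p = 5.3e-05). *ZK218.5* was at 6.24 to 49.5 in WT and 1.2 to 4.62 in *sod-2* worms, and *ZK218.11* at 1.96 to 12.61 and 0.204 to 0.872, with log2 fold changes of -2.93 and -2.68. WT 4 was the lowest WT library and the groups did not overlap for all 3 genes. *ZK218.5* was not firm without the 4 libraries rich in molting RNA, where its log2 fold change was -2.77. The decrease of these 3 genes is not particular to *sod-2* worms, as the values of other mutants given below show. *C30G12.2* was at 156 to 270 in WT and 38.3 to 112 in *sod-2* worms (-1.68; limma, adjusted p = 0.000814).

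*T22B7.7* was at 26.5 to 74.0 in WT and 5.27 to 15.5 in *sod-2* worms (-2.13; limma, adjusted p = 0.00187), and *M02G9.1* at 10.54 to 56.0 and 4.17 to 9.37 (-2.08; limma, adjusted p = 0.00558). *dhs-26*, a short-chain dehydrogenase, was at 2.19 to 11.7 in WT, highest in WT 1, and 0.503 to 1.16 in *sod-2* worms (-1.70; limma, adjusted p = 0.00935). *T22B7.7* and *dhs-26* were not firm without the 4 libraries rich in molting RNA, where they were at -1.69 and -1.67. *srp-5*, of the serpin family, was firm, but its size rests on the counting: 182 to 344 WT reads and 0, 1, 0, 0, 1 and 0 *sod-2* reads in the filtered table stand against 361 to 622 and 136 to 249 in the whole-count table, where the log2 fold change was -1.18 (edgeR, adjusted p = 0.000802).

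**Figure D4:**
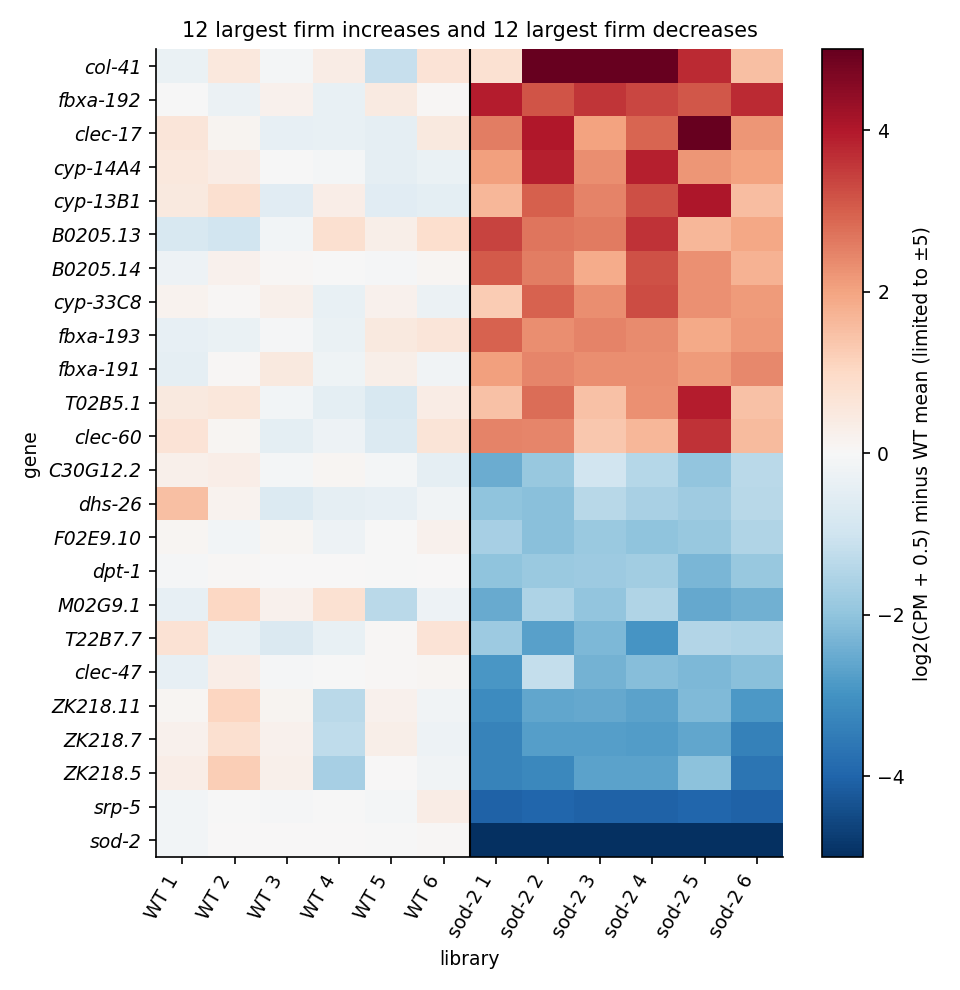
Log2(normalized CPM + 0.5) minus the WT mean, by color limited to ±5, for the 12 largest firm increases and 12 largest firm decreases without overlap of the groups (rows) in each library (columns). *col-41* is strongest in *sod-2* 2, 3 and 4, while *fbxa-192*, *dpt-1* and *F02E9.10* change about equally in all 6 mutant libraries.

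The genes that changed lie on all 6 nuclear chromosomes. Chromosome V had the highest share of firm increases, 59 of 2854 genes (2.07%), followed by II with 42 of 2537 (1.66%), and III had the lowest with 12 of 2254 (0.532%). Firm decreases were 16 on V (0.561%), 9 on X (0.456%) and 7 on I (0.294%), the chromosome of *sod-2*. Over all genes the shares were 1.24% for firm increases and 0.309% for firm decreases. Another firm gene lay within 10000 bases of 45 of the 225 firm genes with a position (20%), in 41 of these all in the same direction, against 5.48% for all genes of both tables. Adjacent genes that changed together included *acd-1* and *delm-2*, *egl-36* and *R07A4.2*, and *cyp-33C8* and *R08F11.4*, most of which were named after their values were seen.

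The DAF-16 targets listed here are those the study measured, taken by it from a published list. All 8 had a positive log2 fold change and none was firm. limma called 1 in the filtered table, edgeR called 0 in the whole-count table, and DESeq2 called 2 there. Of the 8, 5 had an unadjusted p below 0.05 (limma), against 2521 of all 14596 genes in both directions. *sodh-1*, an alcohol dehydrogenase, was at 143, 29, 31.1, 13.5, 23.6 and 61.4 in WT worms and at 290, 154, 77.9, 186, 1092 and 158 in *sod-2* worms. The groups overlap through WT 1 and *sod-2* 3, and *sod-2* 5 stands highest (log2 fold change 2.55 ± 0.63; limma, adjusted p = 0.0455; edgeR in the whole-count table, adjusted p = 0.0807). Its call in the filtered table was lost without any of WT 2 to 6 or *sod-2* 1, 2, 4 or 5, with adjusted p of 0.0573 to 0.106 (limma).

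*ftn-1*, the iron store ferritin, was at 2.05, 3.35, 1.15, 1.85, 0.796 and 2.55 in WT worms and at 2.79, 4.26, 5.12, 5.53, 8.38 and 2.93 in *sod-2* worms (1.12 ± 0.30; limma, adjusted p = 0.063). It was past the threshold without WT 2, *sod-2* 1 or *sod-2* 6, at adjusted p of 0.0331 to 0.0422 (limma). *sod-3* was at 3.62, 3.44, 2.78, 3.34, 3.53 and 4.51 in WT worms and at 7.28, 6.54, 4.01, 5.53, 22.1 and 4.44 in *sod-2* worms (0.89 ± 0.32; limma, adjusted p = 0.177). Its WT reads in the filtered table were 86.2% of those in the whole-count table, where the log2 fold change was 1 (edgeR, adjusted p = 0.223).

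*mtl-1*, a metallothionein, was at 1.63 to 19 in WT and 43.7, 2.05, 1.17, 5.31, 173 and 6.68 in *sod-2* worms, so that 2 of 6 mutant libraries were above the WT range (0.92 ± 1.01; limma, adjusted p = 0.619). *icl-1*, of the glyoxylate shunt, and *gpd-2*, of glycolysis, had log2 fold changes of 0.62 and 0.36, and *acs-17*, an acyl-CoA synthetase, and *dod-3* of 0.33 and 0.35 (limma, adjusted p = 0.23 to 0.709 over these 4). *sod-2* 5 was the highest of the 12 libraries for each of the 8 genes, and it also had the lowest level of 5 body wall muscle markers, 5800 against 9601 to 16520 in the other libraries. It was lowest in germline markers (851 against 1085 to 1665) and pharynx markers (639 against 782 to 1428) as well. Its intestine and epidermis markers lay within the range of the other libraries, and its neuron markers, at 424, were the highest by a hair (next 423.8). The part of this library's tissue content in the DAF-16 target values was not tested. *daf-16* itself had a log2 fold change of -0.08 (limma, adjusted p = 0.587).

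The other superoxide dismutases were not called either. *sod-1* was at 116 to 132 in WT and 115 to 169 in *sod-2* worms (0.13; limma, adjusted p = 0.481), *sod-4* at 8.09 to 16.6 and 11.4 to 35.9 (0.66; limma, adjusted p = 0.213), and *sod-5* at 0.0758 to 0.580 and 0.216 to 1.46 (0.27; limma, adjusted p = 0.563). Of the reads in the whole-count table, the WT libraries kept 86.1% for *sod-1* and 75.7% for *sod-4* in the filtered table. In the whole-count table the change of *sod-1* had the other sign, -0.10.

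**Figure D5:**
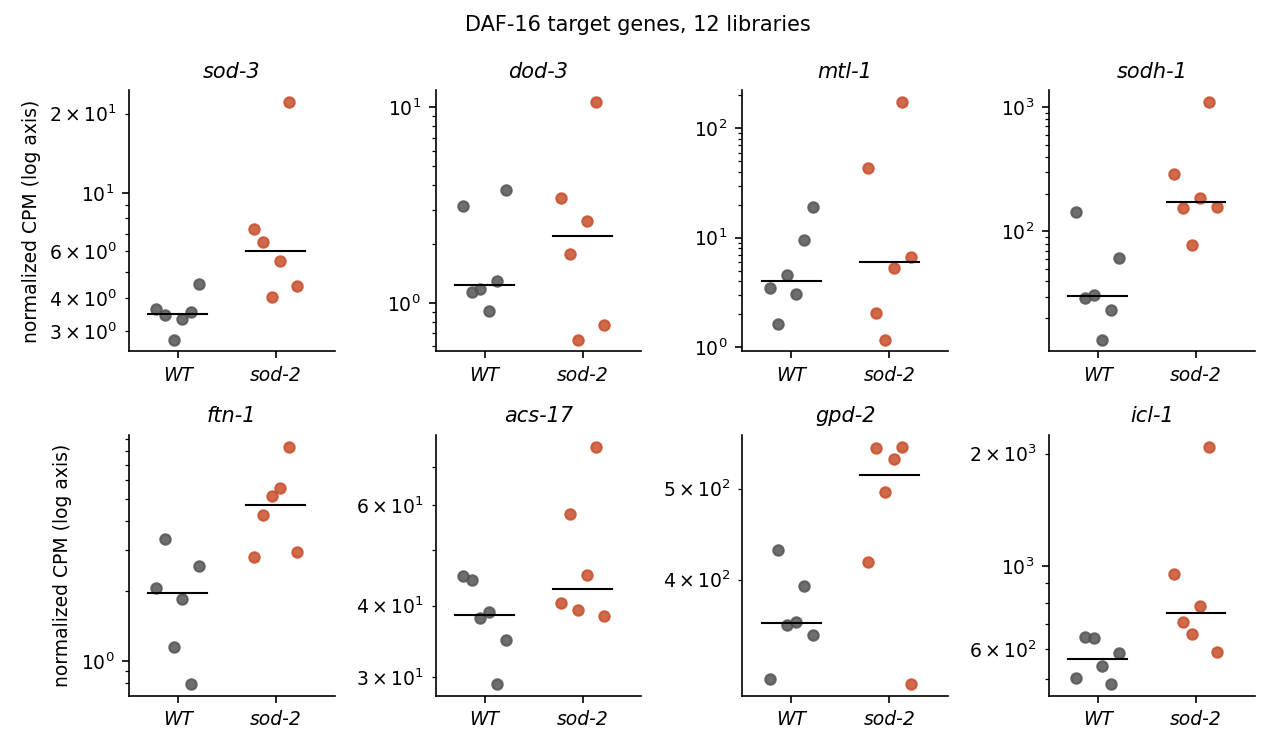
Normalized CPM (y axes, log) of 8 DAF-16 targets in 6 WT (gray) and 6 *sod-2* (orange) libraries, with the median as a line. The groups overlap in every panel, and the highest point of each panel is *sod-2* 5, such as 22.1 for *sod-3* and 1092 for *sodh-1*.

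The same targets can be set beside 3 mutants of the other experiment, which were compared with their own 6 WT libraries and normalized apart, so the values were not tested against each other. In *daf-2* worms, with reduced insulin-like signaling, limma called 8 of 8 up (median log2 fold change 3.60). For *isp-1*, a complex III mutant, it called 7 of 8 (2.40). For *nuo-6*, a complex I mutant, it called 8 of 8 (2.16). In *sod-2* worms the median was 0.76. The paper had already seen 7 of these 8 genes, all but *acs-17*, rise in its mitochondrial mutants by RNA sequencing. The calls of those 7 for *nuo-6* and *isp-1* were therefore known beforehand and are no independent comparison with *sod-2* worms.

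The firm genes of *sod-2* worms were also looked up in these mutants. In the other experiment's full table limma called 17.4% of 14033 genes up and 16.3% down in *daf-2* worms. The shares were 11% and 10.3% for *isp-1*, then 22.5% and 14% for *nuo-6*. Of the 172 firm increases present there, *daf-2* worms upregulated 92 (53.5% of the firm increases and 3.86% of the *daf-2* increases), *isp-1* worms 135 (78.5% and 8.84%), *nuo-6* worms 143 (83.1% and 4.58%). Of 43 firm decreases, *daf-2* worms downregulated 22 (51.2% and 0.967%), *isp-1* worms 26 (60.5% and 1.80%), *nuo-6* worms 19 (44.2% and 0.974%). Opposite calls were made for 9, 1 and 2 of the firm increases and for 7, 3 and 3 of the firm decreases in *daf-2*, *isp-1* and *nuo-6* worms. The other 4 mutants of that experiment called fewer genes up, 6% in *clk-1* (ubiquinone synthesis), 6.51% in *prdx-2* (peroxiredoxin), 1.05% in *ctl-1* (catalase) and 0.606% in *sod-1* worms, of which all but *clk-1* had 3 libraries. Of the 172 firm increases, 93 (54.1%), 97 (56.4%), 32 (18.6%) and 24 (14%) were upregulated there, in that order, or 11.1%, 10.7%, 23% and 28.2% of each mutant's increases. Downward calls in these 4 mutants, in the same order, were 2.27%, 6.51%, 1.57% and 1.96% of all genes, and 13 (30.2%), 23 (53.5%), 12 (27.9%) and 6 (14%) of the 43 firm decreases, or 4.13%, 2.54%, 5.45% and 2.19% of each mutant's decreases. The 7 mutants share their WT libraries and are not compared with each other here. *cyp-14A4*, at 2.73 in *sod-2* worms, had log2 fold changes of 1.30, 4.26 and 5.27 in *daf-2*, *isp-1* and *nuo-6* worms. *B0205.13*, at 2.64, had -1.38, 3.79 and 4.17. *C30G12.2*, at -1.68, had 1.46, -2.04 and -1.72. *dpt-1* fell in *sod-2* worms by 1.93 on the log2 scale, and was at -0.52, -0.06 and -0.25 there. *ZK218.5*, at -2.93 in *sod-2* worms, had -4.62, -4.67 and -4.64 in *daf-2*, *isp-1* and *nuo-6* worms. *ZK218.7*, at -2.93, had -3.21, -3.23 and -3.17, and *ZK218.11*, at -2.68, had -3.09 in each. For these ZK218 genes the adjusted p in the 3 mutants was at most 1.48e-07 (limma).

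Some firm genes changed in every mutant of that experiment. All 7 mutants there showed the same direction, by limma, for 9 of the 172 firm increases (5.23%, against 0.115% of all genes of both tables) and 1 of the 43 firm decreases (2.33%, against 0.0288%). These were *fbxa-191*, *fbxa-192*, *fbxa-193*, *Y102A5C.5*, *Y102A5C.6*, *Y102A5C.36*, *F40D4.13*, *R03A10.5* and *C09E7.8*, and *srp-5*, named after their values were seen. Those 7 comparisons share their WT libraries with each other, and none of them with the *sod-2* comparison.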

How the data were processed

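Per the labels, libraries were made with the Kapa stranded mRNA-Seq kit, and the submitters' processing notes name bcl2fastq 2.18, FastQC 0.11.5, STAR 2.5.2b, edgeR 3.20.1, R 3.4.1 and build WBcel235. Per the methods, reads were aligned and counted per gene by STAR and normalized by edgeR. The authors deposited the filtered table as normalized signal (scaled CPM after a gene filter whose rule is not given in the sources used here). Its values are whole multiples of 1 step in 100% of genes of every library (tolerance 0.05 read), so reads could be recovered. edgeR on these called 396 genes up and 100 down. The second deposited table holds a read count per gene; how it was counted is not given in the sources used here, nor is the strand setting of either.

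limma 3.58.1 (lmFit, eBayes with trend, two-sided, pseudocount 0.5) was run on the filtered table and edgeR 4.0.16 (quasi-likelihood, TMM, genes with at least 1 read) on the counts, in R 4.3.3, without covariates. P-values were adjusted by Benjamini-Hochberg over all genes tested. Positions come from an Ensembl annotation of WBcel235, which matched 14518 of 14596 genes. DESeq2 1.42.0, other pseudocounts, filters, thresholds, a replicate block and leave-outs were alternatives. The 39 libraries of the other experiment were fitted together by limma. Named genes were the *sod* genes, the study's 8 DAF-16 targets and *daf-16*, the 12 largest firm increases and decreases with a mean of at least 1 and no group overlap, and up to 4 firm members per gene list; others are said to be named after their values were seen. Members and lists were chosen with earlier results of these data known. Both fits were tested on simulated data. No 2 libraries of a group agreed within sampling noise.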

Additional observations from a re-analysis of the deposited data

Results flagged for a closer look

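Within the 118 groups of 6 libraries behind the 59 named genes, 6 had a library far from the others by Dixon's test on the log2 scale, where chance gives about 1 in 20. *sod-2* 5 stood high in *sod-3* (22.1 normalized CPM, next 7.28) and *sqrd-1* (14.9, next 7.38). *sod-2* 6 stood low in *gst-20* (16.407, next 33.5) and *timm-23* (77.1, next 105). *sod-2* 1 stood low in *nhr-193* (2.21, next 6.79), and WT 6 stood high in *srp-5* (10.2, next 7.65).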

How the results depend on the processing

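The firm counts (181 up, 45 down) kept within 1.5 times with a pseudocount of 1 (173 and 45). They moved at a false discovery rate below 0.01 (55 and 16), with an absolute log2 fold change of at least 1 (103 and 24) and, for the decreases, with DESeq2 (72) and with the molting covariate (68); without the 4 libraries rich in molting RNA they were 39 and 14. In the filtered table the counts moved at the stricter rate (165 up and 43 down), with the fold threshold (167 and 49), without the 4 libraries (137 and 43) and among genes counted alike in both tables (139 and 44). In the whole-count table they moved with DESeq2 (608 and 164), at the stricter rate (64 and 17), with the fold threshold (30 down) and without the 4 libraries (47 and 15). Leaving out single libraries gave 211 to 620 genes up and 58 to 166 down in the filtered table, 88 to 409 and 22 to 91 in the whole-count table, and 75 to 351 and 21 to 82 firm. The molting settings, the restriction to genes counted alike and limma on the whole-count table were chosen after the data were seen. The cause of these moves was not tested, beyond fewer libraries, fewer genes or a stricter rule.

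Same-numbered libraries of the 2 groups did not deviate together throughout, with correlations of 0, 0.72, -0.12, 0.31, 0.14 and 0.25 for numbers 1 to 6. Of 6 WT libraries 1 correlated best with its own number, and of 6 *sod-2* libraries 1. The numbers were therefore not used as pairs in the main tests. Whether same-numbered libraries were grown or prepared together cannot be told from these correlations. With the replicate block, 136 genes were firm up and 42 down, 453 up and 152 down in the filtered table (the latter moved by over 1.5 times), and 162 and 46 by the whole counts. Of the full list 77 increases and 18 decreases were not firm with the block. Of the alternatives for single genes, 3 changed the sign of a change that was not called: *sod-1* (-0.10 in the whole-count table), *dod-3* (-0.05 without *sod-2* 5, -0.05 to 0.60 over the leave-outs) and *daf-16* (0.01 without the 4 libraries).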
